A study of Mus musculus with 12 samples.

Results

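The genes described here are 39 interferon-response and class I antigen processing genes, measured in the livers of 12 telomerase knock-out and wild-type mice. They comprise 16 genes of the interferon gamma type and 23 of the type I kind, and each was found through its symbol in the array annotation. Where a gene had several probes, the brightest on average was used. Of the 39 genes, 34 had a probe of a single gene, 13 of the gamma type and 21 of type I, out of 19938 genes so represented. Gbp2, Igtp, Irgm2 and Isg15 were measured only by probes shared with another gene, and Ifi44 was not analysed here.

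Interferons are secreted proteins that warn cells of infection. Interferon gamma, made mainly by T cells and natural killer cells, signals, in part through Irf1, to genes for guanosine triphosphatases, chemokines and the machinery that cuts proteins into peptides and loads them on class I molecules. Type I interferons signal through a complex that holds Stat2 and Irf9 to antiviral genes such as the Mx, Oas and Ifit families. In liver many cell types, hepatocytes and Kupffer cells among them, respond to both kinds, and many of the genes respond to either, so the split is one of convention.

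Each array held liver RNA from a single male C57BL/6J mouse. There were 4 groups of 3: first-generation (G1) mTERT KO mice, which lack the reverse transcriptase of telomerase; wild-type mice of that line (mTERT WT); first-generation mTR KO mice, which lack its RNA template; and wild-type mice of that line (mTR WT). Knock-out and wild-type mice of a set were littermates, with 3 sets in each line. The number in a sample label was read as the set, which is an inference. On that reading mTERT KO 3 and mTERT WT 3 come from the same litter, and all statements below on litters and littermates rest on it. No treatment was given, and the age of the mice, which were matched for it, is not given in the sources used here.

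Both signal routes end on short DNA motifs, which were searched in the RefSeq promoter windows of assembly GRCm38.p6, reaching from 250 bases before to 50 bases after the start of each gene. The core of the interferon-stimulated response element, bound by interferon regulatory factors and by the type I complex, was taken as GAAA, any 2 bases and GAAA again. The core of the gamma-activated site, which serves the interferon gamma route, was taken as TTCNNNGAA. Both strands were read. A window was found for 29 of the 39 genes. For Gbp3, Irf1, Irf9 and Ifit2 there was a second window at another start, and a match in either window was counted. The response element core lay in 14 of the 29 genes, or 48.3%, against 1079 of 27025 genes (3.99%) among all with a window. The gamma site core lay in 8 of the 29 genes, or 27.6%, against 2582 genes (9.55%). By kind, the response element core lay in 6 of 13 gamma type and 8 of 16 type I genes, and the gamma site core in 4 of 13 and 4 of 16. The 230 bases before the start of 5 genes are printed to show how the motifs sit, 5′ to 3′ on the strand of the gene, with the matches in capitals. They are the guanosine triphosphatase genes Gbp3 and Irgm1 and the regulator Irf1 of the gamma type, and Stat2, a subunit of the type I complex, and the antiviral gene Bst2 of type I.
Gbp3: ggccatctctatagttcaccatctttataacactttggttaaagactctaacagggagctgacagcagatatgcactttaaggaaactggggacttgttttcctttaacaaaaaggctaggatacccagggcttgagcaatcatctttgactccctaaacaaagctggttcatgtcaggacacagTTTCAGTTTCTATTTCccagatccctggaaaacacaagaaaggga
Irgm1: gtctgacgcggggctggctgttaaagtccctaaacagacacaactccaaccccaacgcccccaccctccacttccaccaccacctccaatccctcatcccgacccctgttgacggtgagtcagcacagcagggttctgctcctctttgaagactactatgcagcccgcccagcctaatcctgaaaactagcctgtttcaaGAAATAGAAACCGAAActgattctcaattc
Irf1: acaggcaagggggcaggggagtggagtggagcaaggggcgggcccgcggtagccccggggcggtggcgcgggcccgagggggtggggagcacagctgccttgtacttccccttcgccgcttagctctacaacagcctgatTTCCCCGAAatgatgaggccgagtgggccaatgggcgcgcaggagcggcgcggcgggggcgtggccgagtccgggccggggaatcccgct
Stat2: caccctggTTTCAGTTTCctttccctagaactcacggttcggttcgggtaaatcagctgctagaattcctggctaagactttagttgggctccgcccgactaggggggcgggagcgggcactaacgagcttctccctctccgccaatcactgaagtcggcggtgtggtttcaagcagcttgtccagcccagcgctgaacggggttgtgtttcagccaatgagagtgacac
Bst2: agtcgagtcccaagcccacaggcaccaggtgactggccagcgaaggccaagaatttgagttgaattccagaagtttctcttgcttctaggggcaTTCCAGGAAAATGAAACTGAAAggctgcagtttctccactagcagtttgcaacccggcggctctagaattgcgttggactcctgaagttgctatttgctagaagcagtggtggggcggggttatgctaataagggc
The stretch of Gbp3 is chr3:142559814-142560043 on the plus strand, and its response element cores, read on the other strand, begin 45 and 39 bases before the start and overlap. That of Irgm1 is chr11:48871421-48871650 on the minus strand, with overlapping cores 30 and 24 bases before the start. Irf1, at chr11:53769784-53770013 on the plus strand, had no response element core and a single gamma site core 90 bases before the start. The second windows of Gbp3 and Irf1, which are not printed, held neither motif. Stat2, at chr10:128270268-128270497 on the plus strand, had a response element core 222 bases before the start. Bst2, at chr8:71537473-71537702 on the minus strand, had a gamma site core at 136 bases that runs into response element cores at 130 and 124 bases. Tap1 and Psmb9, which code for a peptide transporter and a proteasome subunit, face away from each other, and their windows share 275 bases without a match to either motif. A match describes letters in a window and is not a measured binding site.

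Values are log2 intensities, on which a difference of 1 is a 2-fold change in intensity if the base of the logarithm is 2, as its range implies. Array medians lay between 4.37 and 4.43. The background level, taken as the mean over arrays of the 95th percentile of 1027 olfactory receptor genes, was 4.34. The targeted gene Tert read 3.95, 4.07 and 4.15 in KO mice and 4.13, 4.78 and 4.83 in WT mice of the mTERT line, so the KO arrays and mTERT WT 1 lay below background. It read 4.58 to 5.04 in the 6 arrays of the mTR line. Terc, the gene of mTR, had means below background in all 4 groups, so its probe checks nothing about the deletion. All 13 gamma type genes were above background on all 12 arrays, as were 16 of 21 type I genes, and Mx1 and Oas1a had no group mean above it.

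A single array stood apart for these genes. In mTERT WT 3, a wild-type liver, the mean of the 13 gamma type genes was 8.19, against 6.49 to 6.97 on the other 11 arrays. The mean of the 21 type I genes was 6.53 there, against 5.55 to 6.05. In both kinds the next highest array was mTERT KO 3, from the same litter, at 6.97 and 6.05. In a piece of liver, more cells of a type that uses these genes and more RNA per cell cannot be told apart.

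**Figure D1:**
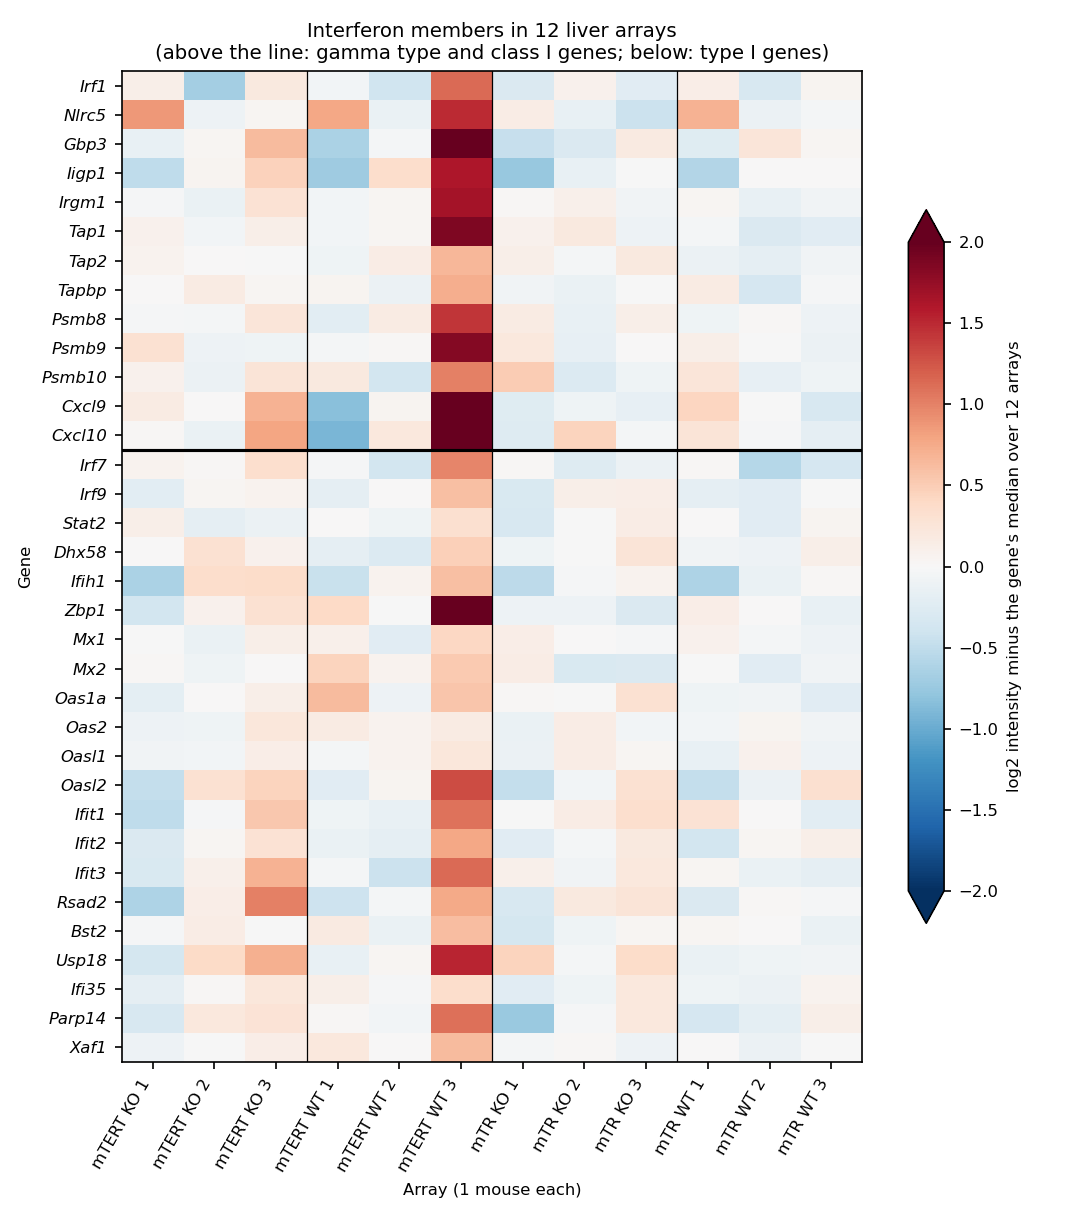
The 34 genes (vertical axis, gamma type above the line, type I below) on the 12 arrays (horizontal axis, 1 mouse each), coloured by log2 intensity minus the gene's median over the 12 arrays. The column of mTERT WT 3 is the highest for 31 of the 34 genes.

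Gene by gene, mTERT WT 3 was the highest of 12 arrays for 31 of 34 members: 13 of 13 gamma type and 18 of 21 type I. Among all 20197 probes tested, 9.42% had this array as the highest. It stood at least 1 log2 unit above the median of the other 11 arrays for 11 of 13 gamma type and 6 of 21 type I genes, against 0.762% of all probes tested. The median excess over the other 11 arrays was 1.63 for the gamma type and 0.62 for type I. The exceptions were Rsad2 and Oas2, highest in mTERT KO 3, and Oas1a, highest in mTERT WT 1. For 7 gamma type and 9 type I genes the order was mTERT WT 3 first and its littermate mTERT KO 3 second, which held for 2.71% of all probes. With 1 array there is no replicate of this excess, and no test was made of it.

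**Figure D2:**
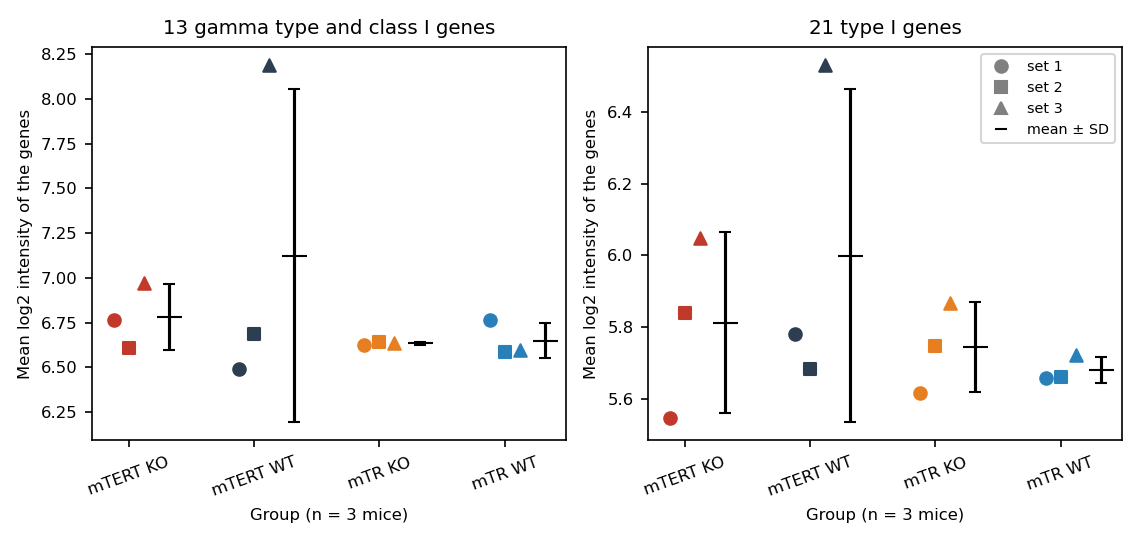
Mean log2 intensity (vertical axis) of the 13 gamma type genes (left) and of the 21 type I genes (right) on each array, by group; marker shapes give the set number, and the bars the mean ± SD of 3 mice. mTERT WT 3 lies at 8.19 and 6.53, above the other 11 arrays in both panels, and widens the SD of its group.

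Among the gamma type regulators, Irf1, a transcription factor induced by interferon gamma, read 6.29, 5.50 and 6.37 in the KO and 6.12, 5.78 and 7.30 in the WT arrays of the mTERT line, and 5.89, 6.27 and 5.94 in the KO and 6.31, 5.86 and 6.23 in the WT arrays of the mTR line. Nlrc5, the transactivator of class I genes, read 6.94, 5.98 and 6.12, then 6.86, 5.95 and 7.58, then 6.23, 5.92 and 5.65, and then 6.77, 5.96 and 6.04 in the same order of groups. Both were highest in mTERT WT 3, and in the other 3 groups the array of number 1 was the highest for Nlrc5, with overlap between all groups. Nlrc5 has 19 probes on the array, of which 15 were highest in mTERT WT 3. The other probe of Irf1, which lay near or below background, was not highest there.

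The guanosine triphosphatases, which attack the vacuoles of intracellular pathogens, were among the genes with the largest excess. Gbp3 read 5.25, 5.44 and 6.04 in the KO and 4.77, 5.36 and 7.47 in the WT arrays of the mTERT line, and 4.93, 5.11 and 5.58 in the KO and 5.16, 5.64 and 5.43 in the WT arrays of the mTR line. Its highest array, mTERT WT 3, was at 4.32-fold the median of the others. Iigp1 read 9.79, 10.35 and 10.76 in the KO and 9.58, 10.64 and 11.91 in the WT arrays of the mTERT line, and 9.53, 10.14 and 10.28 in the KO and 9.70, 10.30 and 10.30 in the WT arrays of the mTR line. Irgm1 read 7.93, 7.83 and 8.24, then 7.91, 8.0 and 9.62, then 7.99, 8.06 and 7.88, and then 8.0, 7.81 and 7.88. For Irgm1 the other 11 arrays spanned only 0.435 log2 units, while mTERT WT 3 stood 1.70 above their median. The probes shared by Gbp2 with Gbp2b, and by Igtp with Irgm2, gave the same picture, at 7.24 in mTERT WT 3 against 4.99 to 5.92, and at 9.91 against 7.04 to 7.83; which gene of each pair gave the signal cannot be told.

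In peptide loading, Tap1 and Tap2 form the transporter that carries peptides into the endoplasmic reticulum, and Tapbp bridges it to class I molecules. Tap1 read 6.51, 6.36 and 6.53 in the KO and 6.36, 6.45 and 8.29 in the WT arrays of the mTERT line, and 6.49, 6.61 and 6.31 in the KO and 6.38, 6.13 and 6.19 in the WT arrays of the mTR line. Tap2 read 5.81, 5.75 and 5.73, then 5.66, 5.88 and 6.40, then 5.86, 5.70 and 5.93, and then 5.62, 5.56 and 5.67. Both peaked in mTERT WT 3, but the excess over the median of the other arrays was 1.91 for Tap1 and 0.67 for Tap2. Tapbp read 8.07, 8.23 and 8.11, then 8.12, 7.96 and 8.79, then 7.99, 7.93 and 8.06, and then 8.24, 7.73 and 8.04, an excess of 0.73.

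The immunoproteasome subunits replace their constitutive counterparts when interferon gamma acts, and change which peptides are cut. Psmb9 read 6.82, 6.42 and 6.44 in the KO and 6.48, 6.55 and 8.35 in the WT arrays of the mTERT line, and 6.73, 6.36 and 6.52 in the KO and 6.64, 6.52 and 6.40 in the WT arrays of the mTR line. Psmb8 read 7.69 and Psmb10 7.24 in mTERT WT 3, against 6.05 to 6.51 and 5.87 to 6.74 elsewhere. So all 3 immunoproteasome genes were highest there. The mean of the constitutive counterparts Psmb5, Psmb6 and Psmb7 was 8.76 in mTERT WT 3, within the 8.67 to 9.06 of the other arrays.

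The chemokines Cxcl9 and Cxcl10 draw activated T cells into tissue. Cxcl9 read 6.64, 6.48 and 7.17 in the KO and 5.64, 6.54 and 8.47 in the WT arrays of the mTERT line, and 6.24, 6.39 and 6.31 in the KO and 6.91, 6.47 and 6.15 in the WT arrays of the mTR line. Cxcl10 read 5.36, 5.20 and 6.11, then 4.41, 5.54 and 7.35, then 5.07, 5.77 and 5.29, and then 5.59, 5.30 and 5.14. For both, mTERT WT held the highest array, number 3, and the lowest, number 1, and mTERT KO 3 was second.

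Of the type I regulators, Stat2, a subunit of the type I complex, read 7.77, 7.47 and 7.53 in the KO and 7.66, 7.57 and 7.97 in the WT arrays of the mTERT line, and 7.33, 7.65 and 7.79 in the KO and 7.65, 7.42 and 7.70 in the WT arrays of the mTR line. Its DNA-binding partner Irf9 read 6.40, 6.65 and 6.69, then 6.43, 6.62 and 7.22, then 6.31, 6.73 and 6.74, and then 6.44, 6.38 and 6.61. Irf7, which amplifies the type I response, read 6.72, 6.67 and 6.99, then 6.63, 6.28 and 7.62, then 6.68, 6.39 and 6.53, and then 6.67, 6.08 and 6.32. All were highest in mTERT WT 3, with an excess of 0.33 for Stat2, 0.61 for Irf9 and 0.99 for Irf7.

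Of the nucleic acid sensors, Ifih1, which binds long double-stranded RNA, read 7.00, 8.0 and 8.01 in the KO and 7.20, 7.71 and 8.25 in the WT arrays of the mTERT line, and 7.12, 7.62 and 7.71 in the KO and 7.02, 7.51 and 7.66 in the WT arrays of the mTR line. In each group the array of number 1 was the lowest. Zbp1, a sensor of left-handed nucleic acid that can trigger cell death, read 4.61, 5.07 and 5.29, then 5.37, 4.97 and 6.97, then 4.88, 4.88 and 4.68, and then 5.11, 4.98 and 4.83. It stood 2.00 log2 units above the median of the others in mTERT WT 3, the largest excess of the 21 type I genes. Dhx58, a sensor-like helicase, read 5.87 there against 5.11 to 5.69.

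Among antiviral effectors, Bst2, which tethers budding viruses to the cell, read 8.61, 8.79 and 8.64 in the KO and 8.83, 8.51 and 9.25 in the WT arrays of the mTERT line, and 8.30, 8.55 and 8.68 in the KO and 8.68, 8.64 and 8.50 in the WT arrays of the mTR line. Mx2, a dynamin-like protein, read 4.53, 4.42 and 4.53, then 4.96, 4.58 and 5.04, then 4.66, 4.21 and 4.22, and then 4.50, 4.29 and 4.45. All 3 mTERT WT arrays lay above all 3 mTERT KO arrays for Mx2, although mTERT WT 2 at 4.58 lay next to the highest KO arrays at 4.53. Oasl1, which belongs to the oligoadenylate synthetase family, read 6.24, 6.26 and 6.45, then 6.27, 6.38 and 6.54, then 6.20, 6.46 and 6.36, and then 6.17, 6.41 and 6.21. It spread over less than 1 log2 unit, and its groups overlapped. Of the Ifit genes, whose proteins bind viral RNA, Ifit1 reached 6.50 in mTERT WT 3 against 4.90 to 5.95 elsewhere, Ifit2 5.06 against 3.91 to 4.57, which spans the background level, and Ifit3 7.52 against 5.96 to 7.08. Oasl2 reached 6.51 there against 4.72 to 5.64. Rsad2, the gene of viperin, went the other way in that litter, at 6.65 in mTERT KO 3 and 6.40 in mTERT WT 3, against 5.02 to 5.91 elsewhere. Mx1, Oas1a and Oas2 read 3.57 to 4.22, 3.58 to 4.45 and 4.09 to 4.45, near or below background, so their sizes are not read as changes in expression.

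Usp18, which removes Isg15 from proteins and dampens the type I receptor, read 5.11, 5.84 and 6.17 in the KO and 5.31, 5.51 and 6.98 in the WT arrays of the mTERT line, and 5.90, 5.42 and 5.84 in the KO and 5.34, 5.38 and 5.40 in the WT arrays of the mTR line. The probe shared by Isg15 and Gm9706 read 4.72 in mTERT WT 3 against 3.95 to 4.53. Parp14, an ADP-ribosyltransferase, read 7.02, 7.55 and 7.62, then 7.37, 7.29 and 8.45, then 6.60, 7.32 and 7.55, and then 7.01, 7.15 and 7.45. These were highest in mTERT WT 3 too. Xaf1, a partner of an apoptosis inhibitor, read 4.66, 4.75 and 4.89, then 4.96, 4.76 and 5.39, then 4.72, 4.78 and 4.66, and then 4.76, 4.63 and 4.74. Ifi35, an interferon-induced leucine zipper protein gene, read 6.11 to 6.68 over the 12 arrays.

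Neither Ifng, the gene of interferon gamma, nor Ifnb1, that of interferon beta, was detected: Ifng read 3.55 to 3.76, Ifnb1 3.69 to 3.99 and the feedback inhibitor Socs1 3.52 to 3.79, all below background on all 12 arrays. Of 33 further genes of the pathway, from ligands and receptors to class I loading, 13 were highest in mTERT WT 3, against 9.42% of all probes tested. Of these 33 genes 0 stood at least 1 log2 unit above the median of the other arrays there, against 0.762% of all probes tested. Their median excess in that array was 0.15. B2m, the light chain of class I molecules, read 12.95 there against 12.27 to 12.87, and the peptide trimming gene Erap1 9.07 against 8.25 to 8.74.

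Genes of other cell types were read on the same arrays. The 6 Kupffer cell and macrophage genes averaged 8.14 in mTERT WT 3 and 8.13 in its littermate mTERT KO 3, against 7.07 to 7.66 elsewhere, so they were raised in both littermates. The 7 dendritic cell and class II genes averaged 6.96 in mTERT WT 3, against 5.72 to 6.41; Cd74, the class II invariant chain gene, read 9.38 against 7.31 to 8.50, while Siglech, Xcr1 and Flt3 had means below background in all 4 groups. Class II genes respond to interferon gamma as well. The 9 T and NK cell genes averaged 4.44 against 4.01 to 4.29, with 6 of the 9 below background in all groups; Cd3e read 3.97 and Ccl5 6.01, against 5.02 to 5.50 for Ccl5 elsewhere. All 3 B cell and all 4 neutrophil genes were below background in all groups. The 6 skeletal muscle genes averaged 6.85 in mTERT WT 3, 7.32 in mTERT WT 1, and 3.95 to 4.75 on the remaining arrays, while the gamma type mean of mTERT WT 1, at 6.49, was the lowest of the 12 arrays. The 5 hepatocyte genes lay between 12.87 and 13.00 on all arrays. The part of these cells and tissues in the interferon values was not tested.

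For loss of mTERT, the design asks whether these genes differ between knock-out and wild-type littermates. No member passed the test, and the differences in group means lay mostly below 0: all 13 gamma type genes, with a median log2 difference of −0.35 (range −0.57 to −0.12), and 19 of 21 type I genes, with a median of −0.14. The median over all 20197 probes tested was 0.012. The direction of the gamma type rested on mTERT WT 3: without that array 11 of 13 gamma type genes and 13 of 21 type I genes lay above 0, with medians of 0.097 and 0.058. That kept its littermate mTERT KO 3, the next highest array, in the KO group. Without both arrays the medians were 0.055 for the gamma type and −0.005 for type I. The mean over the 13 gamma type genes was 0.27 higher in KO than in WT in litter 1, −0.08 in litter 2 and −1.22 in litter 3. For type I it was −0.23, 0.15 and −0.48. A member was lower in KO in all 3 litters in 0 gamma type and 3 type I cases, against 9.69% of all probes tested. Higher in KO in all 3 litters were 0 genes of either kind, against 13.9% of all probes tested.

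**Figure D3:**
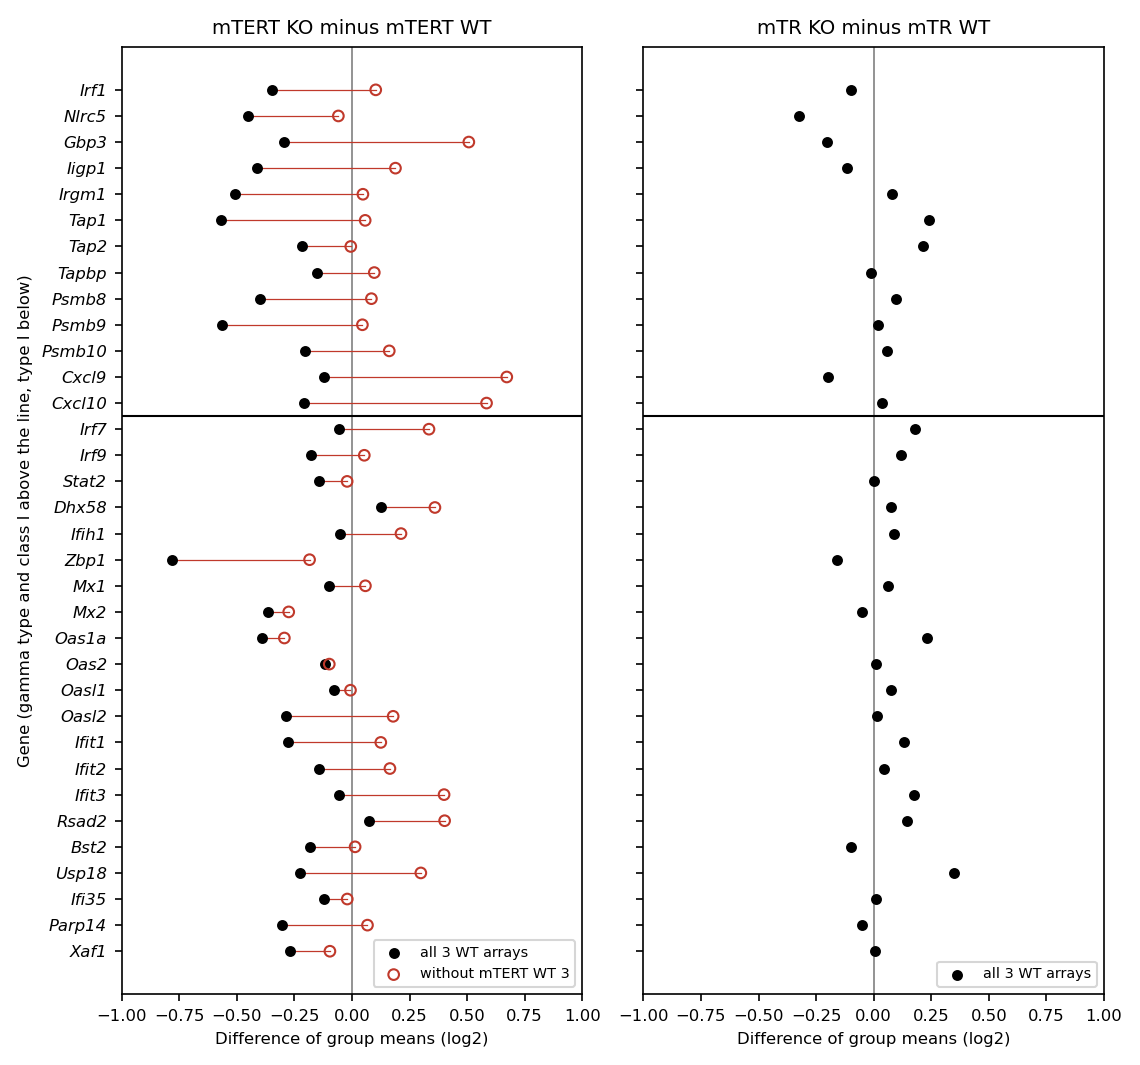
Difference of group means, KO minus WT, on the log2 scale (horizontal axis) for the 34 genes (vertical axis) in the mTERT line (left) and the mTR line (right). Filled points use all arrays; open points leave out mTERT WT 3, which takes the gamma type genes below 0 from 13 of 13 to 2 of 13.

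By limma with Benjamini-Hochberg adjustment, 0 of 20197 probes (0%) and 0 of 32 members tested were called in mTERT KO against WT, and 283 probes (1.4%) had an unadjusted p under 0.05, among them 1 member, Mx2. Mx2 differed by −0.37 (SE 0.149, limma unadjusted p 0.0307, adjusted p 1), and its groups did not overlap, as for 4.33% of all probes. Mx2 lay near the background level, above it on 9 of 12 arrays, which limits the reading of its size. Zbp1 differed by −0.78 (SE 0.391) and Xaf1 by −0.27 (SE 0.141). Tap1 and Psmb9 both differed by −0.57 (SE 0.386 and 0.384), Irgm1 by −0.51 (SE 0.349), Tap2 by −0.22 (SE 0.157) and Bst2 by −0.18 (SE 0.169), each with a limma adjusted p of 1. For Tap1 the SD over 3 arrays was 1.09 in mTERT WT and 0.0918 in mTERT KO. Without mTERT WT 3 the differences were 0.06 for Tap1, 0.05 for Psmb9, 0.05 for Irgm1 and 0.01 for Bst2. Of the 33 other pathway genes 15 lay above and 18 below 0, none was called, and Erap1, at −0.35 (SE 0.159), was the one with an unadjusted p under 0.05.

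For loss of mTR, no member passed the test, the gamma type genes lay on both sides of 0, and most type I genes lay slightly above it. Of the gamma type genes 7 lay above and 6 below 0, with a median log2 difference of 0.021. Of the type I genes 16 lay above and 5 below, with a median of 0.061, which ran from 0.029 to 0.148 as each array was left out. Over all probes tested 45.9% lay above 0, and the median was −0.010. The mean over the gamma type genes differed by −0.14, 0.05 and 0.04 in the 3 litters, and that over the type I genes by −0.04, 0.09 and 0.15. A member was higher in KO in all 3 litters in 2 gamma type cases (Tap1 and Tap2) and 7 type I cases (Irf7, Ifih1, Oasl1, Ifit3, Usp18, and Mx1 and Oas1a, which lay below background in every group mean), against 10.6% of all probes tested. Lower in KO in all 3 litters were 2 gamma type genes (Nlrc5 and Iigp1) and 1 type I gene (Zbp1), against 14.8% of all probes tested. This line held no array that stood apart, and the SD of the gamma type mean was 0.0087 among mTR KO arrays and 0.0998 among mTR WT arrays, against 0.929 in mTERT WT. By limma 0 of 20197 probes (0%) and 0 members were called, 195 probes (0.965%) had an unadjusted p under 0.05, and 0 members were among them. Tap2, at 0.21 (SE 0.157), and Usp18, at 0.35 (SE 0.381), had all 3 KO arrays above all 3 WT arrays, as the groups of 4.48% of all probes did not overlap. Nlrc5 differed by −0.32 (SE 0.384), Tap1 by 0.24 (SE 0.386), Gbp3 by −0.20 (SE 0.529), Irf7 by 0.18 (SE 0.279), Irf9 by 0.12 (SE 0.192) and Oasl1 by 0.08 (SE 0.115), each with a limma adjusted p of 1. The Nlrc5 probe used gave the lowest difference of its 19 probes, which ran from −0.32 to 0.13, with 15 below 0. Of the 33 other pathway genes 14 lay above and 19 below 0, and none was called.

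The knock-out effects of both lines were also set against each other and averaged. The effect was lower in the mTERT line for 12 of 13 gamma type and 20 of 21 type I genes, with median differences between the effects of −0.26 and −0.23, against 0.021 over all probes. Without mTERT WT 3 the medians were 0.107 and −0.007. Without mTERT KO 3 as well they were 0.074 and −0.118. By limma 0 of 20197 probes (0%) and 0 members were called, while 293 probes (1.45%) had an unadjusted p under 0.05. The average of both effects had a median of −0.17 for the gamma type and −0.05 for type I, and 0.090 and 0.060 without mTERT WT 3. Without mTERT KO 3 as well the medians were 0.050 and 0.003. For the average 0 probes were called too, while 143 (0.708%) had an unadjusted p under 0.05.

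Wild-type livers of the mTR line lay below those of the mTERT line for 13 of 13 gamma type and 21 of 21 type I genes, with medians of −0.46 and −0.28 against 0.012 over all probes. Without mTERT WT 3 the counts were 7 of 13 and 14 of 21, and the medians −0.01 and −0.06. By limma 0 of 20197 probes (0%) and 0 members were called, and 525 probes (2.6%) had an unadjusted p under 0.05, among them Mx2, Tap2 and Xaf1. Mx2 differed by −0.45 (SE 0.149), Tap2 by −0.36 (SE 0.157) and Xaf1 by −0.32 (SE 0.141), each with a limma adjusted p of 1. The groups did not overlap for Mx2, Oas2 and Xaf1, as for 5.95% of all probes, and Mx2 and Oas2 lay near the background level. This comparison shares its mTERT WT arrays with the knock-out comparison of that line.

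The set number parted some members within every group. Each group holds 1 array of number 1, and these 4 arrays, from 2 litters, were compared with the 8 others with the group as a term, a comparison added after seeing the data. Of the 32 members tested 7 passed as lower in set 1 and 0 as higher, against 38.2% of all probes called (21.1% lower and 17.1% higher), so the count of lower members is near that of the array as a whole. Ifih1 fell most surely, by 0.72 (SE 0.103, limma adjusted p 0.00023): it read 7.00 to 7.20 in set 1 and 7.51 to 8.25 in sets 2 and 3. Iigp1 fell by 0.94 (SE 0.218, limma adjusted p 0.00532), at 9.53 to 9.79 against 10.14 to 11.91. These ranges do not overlap, nor do those of Oasl2 (4.72 to 4.96 against 5.09 to 6.51) and Rsad2 (5.02 to 5.35 against 5.61 to 6.65), as for the 12.6% of all probes with set 1 wholly below. Oasl2 fell by 0.73 (SE 0.186), Rsad2 by 0.71 (SE 0.183), Parp14 by 0.55 (SE 0.17) and Irf9 by 0.31 (SE 0.106), with limma adjusted p between 0.00858 and 0.0362. Ifit2, the last of the 7, differed by −0.41 (SE 0.137, limma adjusted p 0.0331), but all 4 set 1 arrays lay below the background level for it, so that this is not read as a measured change in expression. Nlrc5 lay 0.55 higher in set 1 (SE 0.232, limma adjusted p 0.0792) and did not pass. The 7 are 1 gamma type and 6 type I genes; leaving out mTERT WT 3 gave a gamma type count of 5 and leaving out mTERT WT 2 one of 2, and the type I count was 2 without mTERT KO 1 and 3 without mTERT WT 1 or mTR KO 1. Among the 28 other pathway genes tested 6 passed as higher and 10 as lower in set 1, or 57.1%, against the 38.2% of all probes. The receptor gene Ifngr1 fell by 0.73 (SE 0.0836), Ifnar1 by 0.22 (SE 0.0689) and B2m by 0.35 (SE 0.0781), while the regulator Irf2 rose by 0.39 (SE 0.106). Pancreas acinar genes were high in mTERT KO 1, mTERT WT 1 and mTR KO 1, at means of 10.41, 8.03 and 11.62, and at 4.18 in mTR WT 1; outside set 1 they were high in mTERT WT 2 and mTR WT 2. Their part in the difference was not tested, and with littermates among the 4 arrays the SE may be too small.

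**Figure D4:**
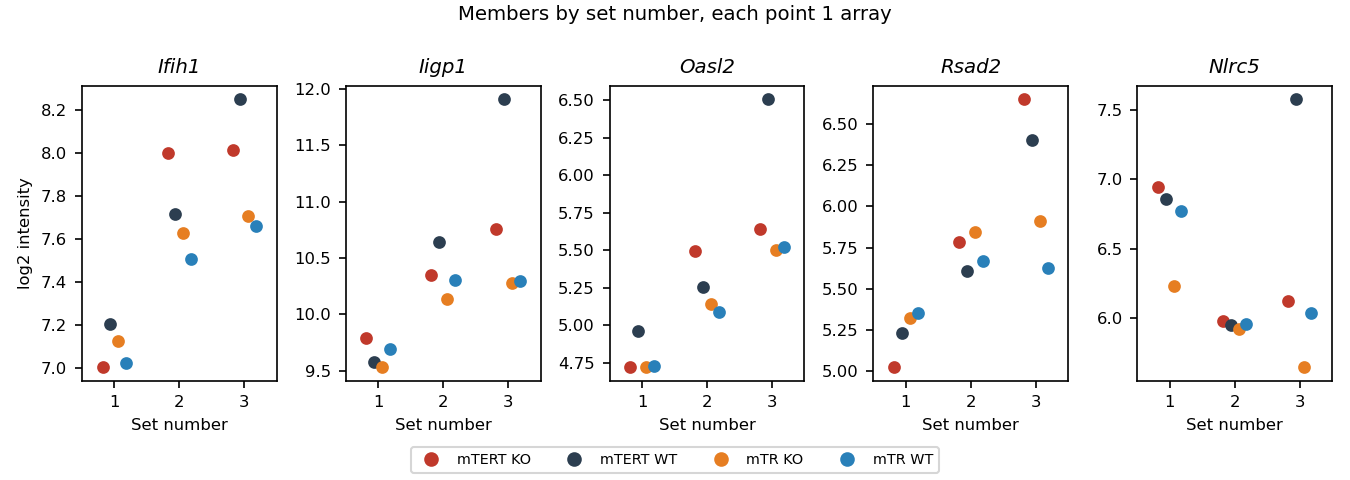
Log2 intensity (vertical axes, each with its own range) of Ifih1, Iigp1, Oasl2, Rsad2 and Nlrc5 on each array by set number (horizontal axes), coloured by group. The 4 arrays of set 1 lie below all others for the first 4 genes; for Nlrc5 they lie above all others but mTERT WT 3.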

How the data were processed

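Total liver RNA, extracted with Trizol and cleaned on columns, was amplified once with random primers, labelled with biotin and hybridized to one-colour Affymetrix arrays, per the labels' protocols. The authors deposited log2 intensities, 1 value for each probe and array. PLIER, GCOS 1.4 and Affymetrix Expression Console stand in the submitters' processing notes, with no role given. The base of 2 was inferred from the range of 2.62 to 13.83, and the normalization and any filter are not given in the sources used here. Isoforms were not separated. Where a gene had several probes, as Nlrc5 with 19, the probe used need not stand for the whole gene. For arrays, their number limits the precision.

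Of 28853 probes, 21789 had 1 gene symbol, 1621 several and 5443 none; 21698 were matched to RefSeq (GRCm38.p6) for current names. Groups and set numbers come from the sample labels. A single limma 3.58.1 fit (lmFit of 4 group means over 12 arrays, eBayes; R 4.3.3) gave 5 two-sided comparisons, with Benjamini-Hochberg adjustment over the 20197 probes whose mean reached the 30th percentile (log2 3.90) and a threshold of 0.05. SE are the moderated standard errors; the code was tested on simulated data. Since same-numbered mice of a line were read as littermates, the litter as a block was an alternative. Deviations of same-numbered KO and WT arrays from their group means correlated at 0.692, 0.135 and 0.623 for the mTERT sets. For the mTR sets they correlated at 0.458, 0.151 and 0.552. These correlations were weak in set 2 of both lines and do not settle which mice were littermates.

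The genes, their split into kinds, the further pathway genes and the cell type markers were chosen with earlier results of these data known. All array values are given for the 4 genes of each kind with the smallest p in each KO comparison and for the gene with the highest mean in each role; the values of Irf1 and Cxcl10 in each group, and the promoter of Irf1, were added after they were seen. Of the further pathway genes, only those on a short preset list or with the smallest p are named. Alternatives were quantile normalization, centring, no filter or one at the 50th percentile, trend and robust eBayes, array weights, a fit of the compared groups alone, 1 probe per gene, a threshold of 0.10, the litter block, and leaving out each array. Added after seeing the data were leaving out set 1 or the third mTERT litter, adding shared probes, and the set comparison with its litter block.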

Additional observations from a re-analysis of the deposited data

Results flagged for a closer look

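Oasl1, of the oligoadenylate synthetase family, was lower in KO in all 3 mTERT litters and higher in KO in all 3 mTR litters. The knock-out effect was −0.08 for mTERT and 0.08 for mTR, and their difference of −0.15 (SE 0.162) did not pass by limma, with an adjusted p of 1. Groups of 3 arrays are too small for the check on single arrays far from their group, so the excess of mTERT WT 3 is described in the report only.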

How the results depend on the processing

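Members were called in none of the 5 group comparisons under any alternative. With a replicate block for the litter, or for the set between WT groups, limma called 0 probes in all 5, and the block changed no call; the lowest adjusted p of a member in the mTERT line was then 0.882, for Mx2. Over all probes, leaving out single arrays gave 0 to 41 calls in mTERT KO against WT (41 without mTERT WT 2, 1 without mTERT WT 1), 0 to 28 for the average effect, 0 to 30 for the difference of effects and 0 to 42 between WT groups, the highest each time without mTERT WT 2. Without the 4 arrays of set 1 there was 1 call in each of mTERT KO against WT, mTR KO against WT and the average; the median of the gamma type in mTERT KO against WT was then −0.69. Without an array the median in that comparison ran from −0.74 to 0.097 for the gamma type and from −0.34 to 0.058 for type I, turning above 0 without mTERT WT 3. Single genes turned with it: Tap1 ran from −0.91 to 0.057, Psmb9 from −0.89 to 0.045, Irgm1 from −0.81 to 0.048 and Bst2 from −0.36 to 0.014, and without mTERT KO 3 and mTERT WT 3 together Tap1 was at 0.026, Psmb9 at 0.107, Tap2 at 0.011 and Bst2 at 0.035. The medians without both arrays were 0.055 for the gamma type and −0.005 for type I. For set 1 against sets 2 and 3, 7709 probes were called, 5064 with 1 probe per gene, where fewer probes are tested, 7135 with the litter as a random block, and 5831 to 7660 without an array. The gamma type genes called numbered 1, but 2 with array weights, 3 at an adjusted p under 0.10 and 1 to 5 without an array; type I genes numbered 6, and 2 to 7 without an array. The cause of these moves was not tested, other than where stated. Signal over background limits Mx1, Mx2, Oas1a, Oas2 and Ifit2, and 3 arrays a group limit all comparisons.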
